A study of Mus musculus with 5 samples.

Results

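The insulin-like growth factor (IGF) system was examined in single-cell transcriptomes of mouse cardiac interstitial cells through 9 genes. They encode the 2 ligands Igf1 and Igf2, the 2 receptors Igf1r and Igf2r, and 5 of the IGF binding proteins, Igfbp3, Igfbp4, Igfbp5, Igfbp6 and Igfbp7. The members were taken by name from 17902 genes listed in at least 1 of 5 libraries, and all 9 were listed in all 5. They were chosen by their measured levels in these cells, in particular an Igfbp3 difference of opposite sign between cell types, so their levels and differences are a description and carry no test.

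The cells were freed from hearts with collagenase II, separated from cardiomyocytes, and sorted on surface cKit (the stem cell factor receptor), DDR2 (a collagen receptor of fibroblasts) and CD45 (a protein of all leukocytes). The 4 sorts were cKit-/DDR2+ (1 library), cKit+/DDR2- (2 libraries, replicates 1 and 2), cKit+/DDR2+/CD45- (1 library) and cKit+/DDR2+/CD45+ (1 library). The labels name no strain, age, treatment or genotype, and do not say whether the libraries came from different hearts. With 3 of the 4 sorts held by 1 library each, a difference between sorts is a difference between libraries, and no p-value is given. Levels are UMIs (unique molecules counted) per 1000000 UMIs of the same cells (CPM), summed over cells, each with an exact 95% Poisson interval that covers counting error only.

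Igf1 and Igf2 are secreted peptides. Igf1r is a tyrosine kinase that carries the signal of both, whereas Igf2r binds Igf2 and delivers it, together with mannose 6-phosphate-tagged enzymes, to lysosomes. Igfbp3, Igfbp4, Igfbp5 and Igfbp6 hold IGFs in the extracellular space, where proteases such as Pappa, which cleaves Igfbp4 and Igfbp5, release them. Igfbp6 prefers Igf2, and Igfbp7 is a related matrix protein of low IGF affinity. In adult tissue Igf1 is known as a product of fibroblasts and macrophages.

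The libraries held 436 to 3898 cells with median depths of 7529 to 10972 UMIs per cell. Xist was at 496 and 757 CPM in cKit+/DDR2- replicate 2 and cKit+/DDR2+/CD45-, and at or near 0 in the other 3, which had the Y-linked Ddx3y instead. The same pair had 9.09% and 10.6% of their UMIs in Gm42418, a gene that collects ribosomal RNA reads, against about 1% elsewhere. These differences between libraries run across the sorts and their part in the results was not tested. Between cKit+/DDR2+/CD45- and either cKit-/DDR2+ or cKit+/DDR2+/CD45+, they cannot be told apart from the sort, in whole libraries or in any type. The library labelled cKit+/DDR2+/CD45+ had Kit at 3.48 CPM and Ddr2 at 1.36 CPM, below the 4.67 and 106 CPM of cKit-/DDR2+, and Ptprc (CD45) at 318 CPM. The sorts used surface protein, and the names below are those of the labels. cKit+/DDR2- replicate 1 and cKit+/DDR2+/CD45+ shared 190 cell barcodes, which were 43.6% of the first library's 436 cells and 4.87% of the second's, whereas other pairs of libraries shared 1 to 3. These 190 barcodes had a median of 12134 UMIs in replicate 1 and 622.5 in cKit+/DDR2+/CD45+, where the remaining cells had 11153. Levels of a type in these libraries are therefore also given without the shared barcodes where this moves them by over 1.5 times or changes an order. For cKit+/DDR2+/CD45+ this leaves 12 of 37 endocardial cells, under the minimum of 20, so its endocardial values are given with the shared barcodes alone.

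Cells were assigned to 5 types by 1 marker each, Pdgfra (fibroblast), Gpihbp1 (capillary endothelium), Npr3 (endocardium, the lining of the heart chambers), Prox1 (lymphatic endothelium) and C1qa (macrophage). A cell had to pass the threshold of its marker and of no other. No doublet caller was run, and cells with several markers (5.34% to 19.5% per library) or none (5.05% to 15.1%) were left out of the types. Fibroblasts numbered 837 in cKit-/DDR2+, 145 in cKit+/DDR2- replicate 2 and 41 in cKit+/DDR2+/CD45-. Capillary cells numbered 985, 126, 271, 549 and 52, and endocardial cells 38, 144, 1176, 403 and 37, in the order cKit-/DDR2+, cKit+/DDR2- replicates 1 and 2, cKit+/DDR2+/CD45-, cKit+/DDR2+/CD45+. Lymphatic cells numbered 35, 80 and 42 in cKit+/DDR2- replicates 1 and 2 and in cKit+/DDR2+/CD45-. They were 33.3%, 20.2% and 25.1% of the cells with Prox1 there, since the rest also passed the threshold of another marker. The lymphatic values thus rest on a minor part of the Prox1 cells. Macrophages numbered 23, 501 and 3341 in cKit+/DDR2- replicates 1 and 2 and in cKit+/DDR2+/CD45+. All markers of each type's own list were detected in its gate in every library with at least 20 such cells. Values from 20 to 49 cells are mostly given with the cell number, but ends of a range often without it. Gates of this size were lymphatic in replicate 1 and cKit+/DDR2+/CD45-, and endocardial in cKit-/DDR2+ and cKit+/DDR2+/CD45+. The fibroblasts of cKit+/DDR2+/CD45- and the macrophages of replicate 1 were also of this size. Endocardial cells of cKit+/DDR2+/CD45+ had a median of 747 UMIs.

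The members lie apart in the genome (GRCm38, GENCODE M21), and 3 of them neighbour a related gene. Igf2 (7:142650766-142666816, minus strand) lies 72.6 kb from the imprinted non-coding gene H19. Igfbp3 (11:7206086-7213923, minus strand) lies 3.54 kb from Igfbp1, and Igfbp5 (1:72857932-72874884, minus strand) lies 5.46 kb from Igfbp2, and neither Igfbp1 nor Igfbp2 was listed in any library. Igf1 (10:87858265-87937042, plus strand), Igf1r (7:67952827-68233668, plus strand), Igf2r (17:12682406-12769664, minus strand), Igfbp4 (11:99041244-99054392, plus strand), Igfbp6 (15:102144362-102149511, plus strand) and Igfbp7 (5:77349240-77408041, minus strand) complete the set. Airn, an antisense RNA that overlaps Igf2r, was at 3.46 to 58.1 CPM. Igf2os, which overlaps Igf2, was at or below 1.17 CPM. How strand was used in counting is not given in the sources used here, so reads of these pairs cannot be assigned with certainty.

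For 3 binding proteins on which the results below turn, the promoter is shown as the 250 bases that precede the annotated start (RefSeq, GRCm38.p6), since each holds a TATA-type hexamer near the start. Capitals mark that hexamer, TATATA in Igfbp3 (chr11:7213924-7214173, minus strand, starting 30 bases before the start), TATAAA in Igfbp4 (chr11:99040994-99041243, plus strand, 28 bases) and TTTAAA in Igfbp5 (chr1:72874866-72875115, minus strand, 49 bases).
Igfbp3: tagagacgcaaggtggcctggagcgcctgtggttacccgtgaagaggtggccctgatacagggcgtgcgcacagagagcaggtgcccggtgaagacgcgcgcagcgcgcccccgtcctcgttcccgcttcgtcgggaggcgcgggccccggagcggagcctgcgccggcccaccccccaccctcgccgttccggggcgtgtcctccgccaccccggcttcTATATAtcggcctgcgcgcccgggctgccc
Igfbp4: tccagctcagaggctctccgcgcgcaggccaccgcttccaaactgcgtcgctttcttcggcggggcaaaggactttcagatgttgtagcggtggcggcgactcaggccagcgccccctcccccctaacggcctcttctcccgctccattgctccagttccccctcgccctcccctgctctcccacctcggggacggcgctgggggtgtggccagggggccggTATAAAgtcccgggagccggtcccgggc
Igfbp5: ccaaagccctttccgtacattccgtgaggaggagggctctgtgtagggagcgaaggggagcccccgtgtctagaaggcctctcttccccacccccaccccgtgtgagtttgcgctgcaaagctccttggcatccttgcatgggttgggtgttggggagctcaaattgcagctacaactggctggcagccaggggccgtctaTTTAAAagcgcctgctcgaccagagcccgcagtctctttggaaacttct
The fourth window is that of Igf2r, which has no TATA-type hexamer. It is shown for the contrast, with GGGCGG (starting 75, 31 and 25 bases before the start) and CACGTG (48 and 7 bases) in capitals (chr17:12769707-12769956, minus strand).
Igf2r: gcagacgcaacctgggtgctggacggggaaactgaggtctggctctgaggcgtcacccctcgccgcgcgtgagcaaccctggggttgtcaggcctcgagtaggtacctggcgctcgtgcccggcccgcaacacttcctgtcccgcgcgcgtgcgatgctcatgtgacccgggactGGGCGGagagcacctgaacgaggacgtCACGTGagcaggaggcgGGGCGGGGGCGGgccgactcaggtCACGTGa
All 9 members matched a RefSeq start. Both strands of 32851 windows of the same length were searched for the same 5 hexamers, which do not overlap one another in the windows shown. The share of windows with a match was 12.4% for TATAAA. It was 5.25% for the TATATA of Igfbp3 and 12.1% for the TTTAAA of Igfbp5. It was 32.7% for the GC-rich GGGCGG and 6.02% for the E-box CACGTG. Within 60 bases of the start, the first 3 of these were held by 3.92%, 1.56% and 2.79% of windows. The windows of Igfbp3, Igfbp4 and Igf2r were rich in G and C (73.2%, 69.2% and 69.2%, against a median of 52.4% over all windows), and that of Igfbp5 less so (58.8%). A match describes the letters and is not a measured binding site.

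The ligand Igf1 was highest in fibroblasts. It reached 251 (242 to 259.7) CPM in cKit-/DDR2+, 119.8 (103 to 138) in cKit+/DDR2- replicate 2 and 112 (85.4 to 143) in the 41 fibroblasts of cKit+/DDR2+/CD45-. The values of these cKit+ libraries overlapped and the cKit-/DDR2+ fibroblasts stood above both, with intervals that do not overlap. After each cell was thinned to 2000 UMIs, 32.4% (29.2% to 35.7%) of fibroblasts in cKit-/DDR2+ had an Igf1 UMI, against 20.3% (14.02% to 27.8%) in cKit+/DDR2- replicate 2. The background share, in endocardial cells of replicate 2, was 0.769%.

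Macrophages and lymphatic cells also had Igf1. The macrophage level was 65.2 (58.2 to 72.8) CPM in cKit+/DDR2- replicate 2, 94.5 (91.5 to 97.5) in cKit+/DDR2+/CD45+ and 28.1 (11.3 to 57.98) in the 23 macrophages of cKit+/DDR2- replicate 1. Lymphatic cells lay close to the macrophage values, at 37.2 CPM in cKit+/DDR2- replicate 2, 83.4 in replicate 1 (35 cells) and 41.7 in cKit+/DDR2+/CD45- (42 cells). In capillary cells Igf1 was 4.44 to 17.9 CPM over 5 libraries, and in endocardial cells 2.83 to 6.71 CPM. The fibroblast range lay above that of every other type, the macrophage and lymphatic ranges overlapped, and the capillary and endocardial ranges overlapped. Without the shared barcodes replicate 1 had 7.35 CPM in capillary and 0 in endocardial cells, and the capillary range then lay above the endocardial one.

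The type that held most Igf1 UMIs differed between libraries. Fibroblasts held 87.9% of the Igf1 UMIs in cKit-/DDR2+, and macrophages held 94.9% in cKit+/DDR2+/CD45+. In cKit+/DDR2- replicate 2 the UMIs were divided between macrophages (43.1%) and fibroblasts (25.8%). In cKit+/DDR2+/CD45-, which held 1 gated macrophage, capillary cells (30.6%) and fibroblasts (28.2%) held similar shares. In cKit+/DDR2- replicate 1, with 58 Igf1 UMIs, lymphatic cells and cells with several markers held 34.5% each and macrophages 12.1%. In sums over a whole library, fewer cells of a type and less RNA per cell cannot be told apart.

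**Figure D1:**
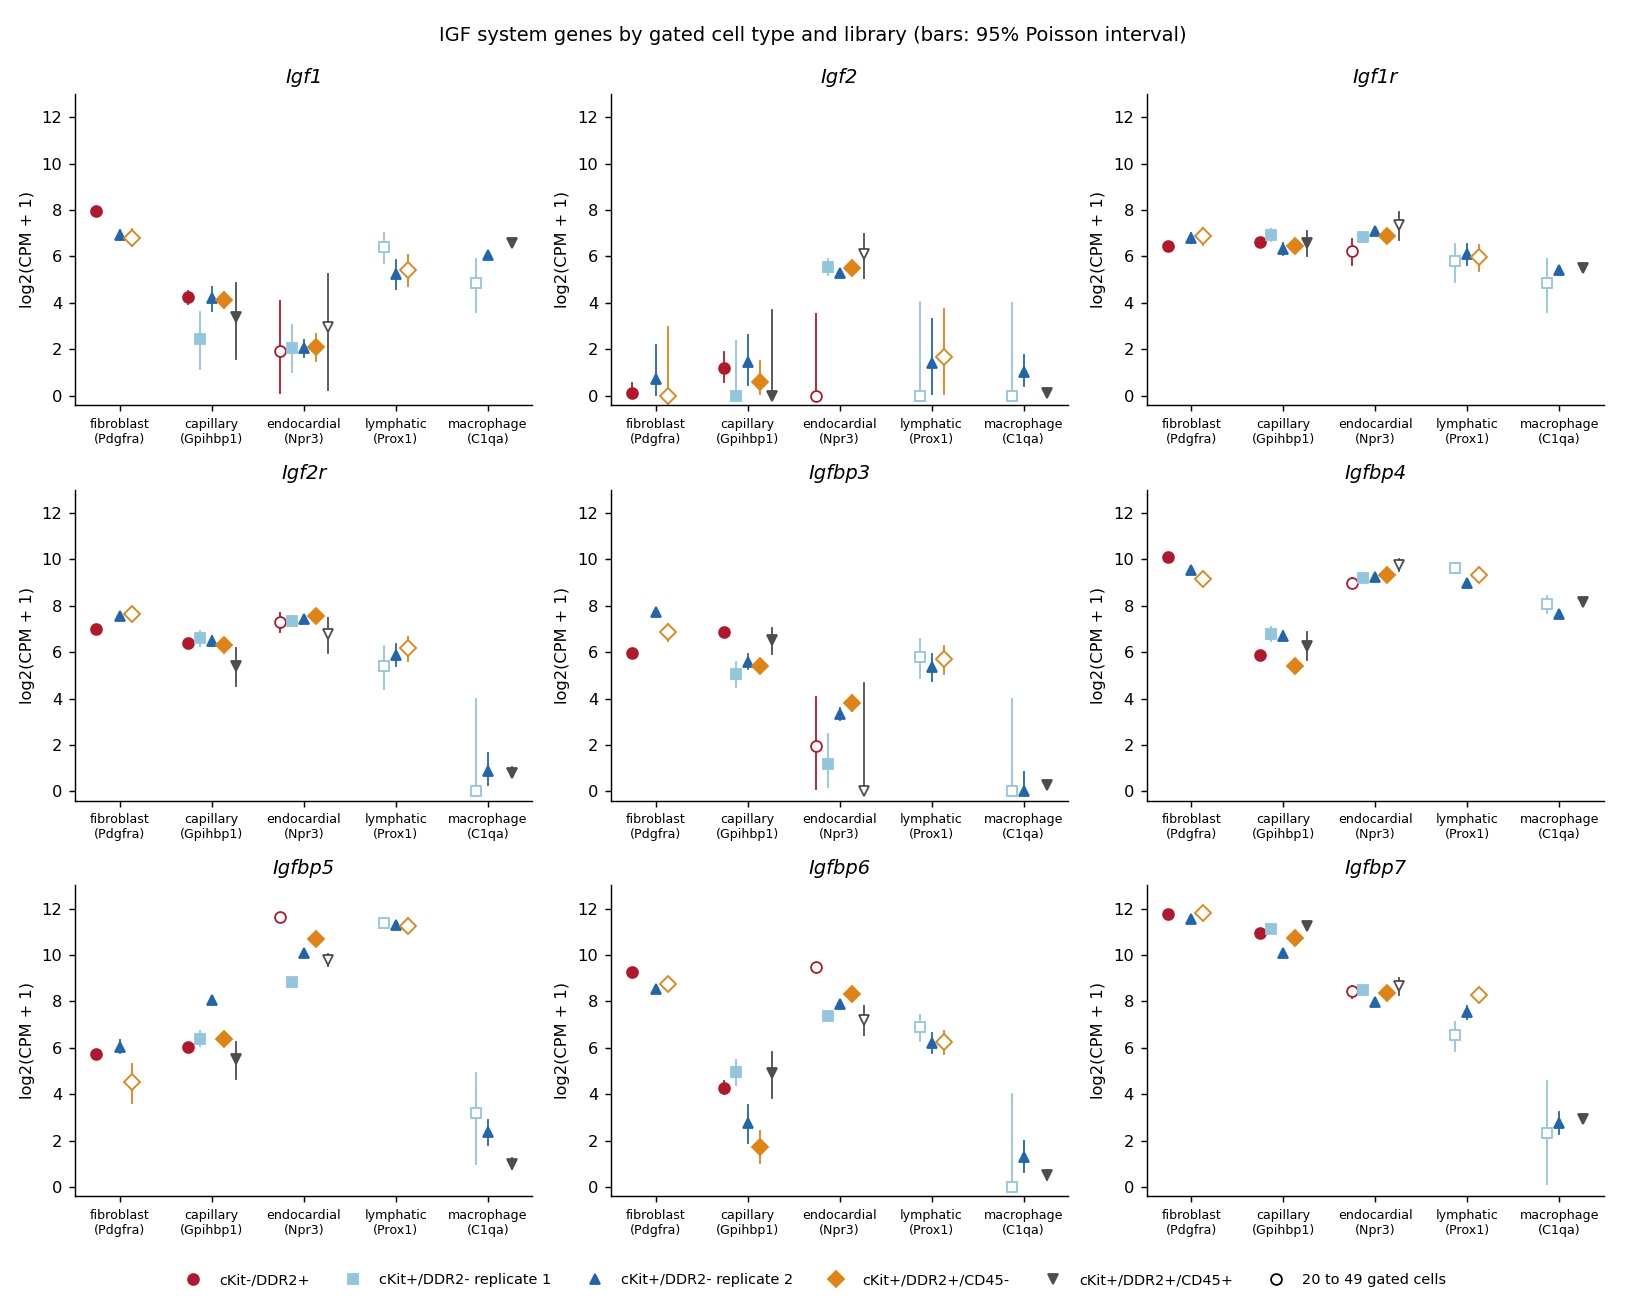
Levels of the 9 genes as log2(CPM + 1) (y axis) in each gated cell type (x axis) and library (colour and symbol), with 95% Poisson intervals as bars and open symbols for 20 to 49 cells. Igf1 was highest in fibroblasts, Igf2 in endocardial cells of 4 libraries, Igfbp5 in lymphatic and endocardial cells, and Igfbp7 in fibroblasts and capillary cells. In cKit+/DDR2+/CD45+, 1 of these 4 libraries, 25 of the 37 endocardial cells carry barcodes shared with cKit+/DDR2- replicate 1.

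Igf2 was an endocardial transcript. Endocardial cells had 45.8 (36.00 to 57.6) CPM in cKit+/DDR2- replicate 1, 37.9 (34.4 to 41.7) in replicate 2 and 43.7 (37.9 to 50.2) in cKit+/DDR2+/CD45-, 3 values with overlapping intervals. In cKit+/DDR2+/CD45+ the 37 endocardial cells gave 67.1 (32.2 to 123), but 25 of them carry barcodes shared with replicate 1. The 38 endocardial cells of cKit-/DDR2+ had no Igf2 UMI, so with a floor of 3 UMIs over the group (8.50 CPM) the level was at least 5.40-fold higher in replicate 1, at least 4.46-fold in replicate 2 and at least 5.14-fold in cKit+/DDR2+/CD45-. Every other gated type stayed at or below 2.20 CPM. The endocardial gate held 90.2%, 82.9% and 81.1% of the Igf2 UMIs in the cKit+/DDR2- replicates and cKit+/DDR2+/CD45-.

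At 2000 UMIs per cell, 7.26% (5.84% to 8.91%) of endocardial cells had an Igf2 UMI in cKit+/DDR2- replicate 2, 8.27% (5.76% to 11.4%) in cKit+/DDR2+/CD45- and 4.86% (1.98% to 9.76%) in replicate 1, against 0.412% of macrophages in replicate 2. At these levels a cell of 2000 UMIs holds under 1 Igf2 UMI on average, so the share does not give the part of the cells that express the gene. H19, the imprinted neighbour of Igf2, was high in the same type, at 1039 CPM in replicate 2, 911 in cKit+/DDR2+/CD45-, 884 in replicate 1 and 159 CPM in the 38 cells of cKit-/DDR2+. Endocardial cells with 2 or more Igf2 UMIs had H19 at 3502 against 590.3 CPM in cells without Igf2 in cKit+/DDR2- replicate 2 (97 and 945 cells). The same comparison gave 2494 against 574 CPM in cKit+/DDR2+/CD45- (46 and 316 cells). H19 ranked first among the genes higher with Igf2 in replicate 2 and stood on the same side in cKit+/DDR2+/CD45-, and in replicate 1 with its 14 such cells (2937 against 656).

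The other genes that ranked highest with Igf2 in replicate 2 and stood on the same side in cKit+/DDR2+/CD45- were Apoc1 (an apolipoprotein), Comp (a cartilage matrix protein), Mt1 (a metallothionein) and Slit3 (a guidance ligand). Comp was at 107 against 38.1 CPM in replicate 2 and 141 against 45.1 CPM in cKit+/DDR2+/CD45-. Slit3 was at 54.6 against 18.3 CPM and 59.4 against 14.1 CPM. Pkhd1l1 (a fibrocystin-like membrane protein) was lower with Igf2, at 12.2 against 58.8 CPM and 25.5 against 98.96 CPM. Of the 12 genes ranked, Gsn (gelsolin) was the one on the other side in cKit+/DDR2+/CD45-. Such splits of a type by a member's own UMIs were chosen after the levels had been seen. Each ranks genes in the library with the most cells of the type and reads them in the others, and cells with more UMIs of a member were mostly also deeper (medians of 10920 against 9545 UMIs here).

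The receptor Igf1r was present at similar levels in fibroblasts, capillary cells and endocardial cells. It was at 87.8 (82.5 to 93.3) and 110.3 (94.6 to 128) CPM in fibroblasts of cKit-/DDR2+ and cKit+/DDR2- replicate 2. Capillary cells had 79.5 to 121 CPM over 5 libraries, and endocardial cells 73.6 (38 cells) to 161 CPM (37 cells). These ranges overlapped. Lymphatic cells had 54.2 to 67.9 CPM and macrophages 28.1 to 44.03 CPM, each below the ranges of the types before it.

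Igf2r was high in fibroblasts and endocardial cells and near 0 in macrophages. Fibroblasts had 127 (120.3 to 133) CPM in cKit-/DDR2+ and 188 (167 to 210.4) in cKit+/DDR2- replicate 2, and endocardial cells had 107 to 187 CPM. Capillary cells had 41.6 to 95.4 CPM, a range that overlapped the 41.7 to 70.3 CPM of lymphatic cells, where the lowest value, that of replicate 1, was 63.3 CPM without the shared barcodes. In macrophages it was 0.823 (0.224 to 2.11) CPM in cKit+/DDR2- replicate 2 and 0.753 (0.511 to 1.07) in cKit+/DDR2+/CD45+, with no UMI in the 23 cells of replicate 1. Macrophages thus carried Igf1r at 41.3 and 44.03 CPM while Igf2r was under 1 CPM in both larger libraries. In the whole libraries the antisense Airn and Igf2r were both lowest in cKit+/DDR2+/CD45+, where 85.7% of cells were gated macrophages. Airn was at 3.46 CPM and Igf2r at 5.78 there, against at least 40.3 and 107 CPM elsewhere. Their order elsewhere differed, since Airn was highest in replicate 1 (58.1 CPM against 55.5 in cKit+/DDR2+/CD45-) and Igf2r in cKit+/DDR2+/CD45-.

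Igfbp3, a carrier of circulating and tissue IGF, differed in opposite directions between fibroblasts and capillary cells. In fibroblasts it was 61.8 (57.4 to 66.4) CPM in cKit-/DDR2+, 209.9 (188 to 234) in cKit+/DDR2- replicate 2 and 115 (88.6 to 148) in the 41 cells of cKit+/DDR2+/CD45-. In capillary cells it was 115 (107 to 125) CPM in cKit-/DDR2+ and lower in cKit+/DDR2- replicate 1, 32.2 (21.5 to 46.2), replicate 2, 47.3 (37.6 to 58.7), and cKit+/DDR2+/CD45-, 40.7 (34.6 to 47.5). Without the shared barcodes replicate 1 had 47.8 CPM, above replicate 2 and cKit+/DDR2+/CD45- and still below cKit-/DDR2+. Thus cKit-/DDR2+ was the lowest of 3 libraries in fibroblasts and the highest of 5 in capillary cells. cKit+/DDR2+/CD45+, with 89.5 (59.5 to 129) CPM in 52 capillary cells, overlapped cKit-/DDR2+. The capillary gate of cKit-/DDR2+ also had the highest sum of the fibroblast list, 993 CPM with 7 of 8 markers detected and Pdgfra at 0 by the gate, against 21.1 to 80.6 CPM in the other 4 libraries. In the fibroblasts of cKit-/DDR2+ the list summed to 65389 CPM and Igfbp3 was below its capillary level, and the part of these UMIs in the capillary difference was not tested. The sign of this contrast is what the members were named for, so it is not evidence for itself.

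Lymphatic cells had Igfbp3 at 40.4 to 54.2 CPM, which overlapped the capillary range. Endocardial cells had 0 to 12.98 CPM and macrophages 0 to 0.194 CPM, lower than any of the other types.

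Igfbp3 UMIs lay in few fibroblasts. At 2000 UMIs per cell, 4.46% (3.16% to 6.09%) of fibroblasts in cKit-/DDR2+ and 10.5% (5.99% to 16.7%) in cKit+/DDR2- replicate 2 had a UMI, and the tenth of cells with most Igfbp3 held 99.2% and 95.2% of its UMIs. The macrophages of replicate 2 had no Igfbp3 UMI. Cells with 2 or more UMIs numbered 43 and 16. In cKit-/DDR2+ these cells had more Pdlim3 (an actin-associated protein, 290.3 against 34.8 CPM), Cntfr (the ciliary neurotrophic factor receptor, 192 against 20.5) and Mdk (the growth factor midkine, 164 against 16.8) than cells without Igfbp3. They had less Pi16, a peptidase inhibitor that marks an adventitial fibroblast population, at 153 against 766 CPM. In cKit+/DDR2- replicate 2, where 16 cells gave the first value, Cntfr was at 165 against 5.38, Mdk at 194 against 26.1 and Pi16 at 126 against 438 CPM. Of the 12 genes ranked in cKit-/DDR2+, Car3 was listed at 0 CPM in both sets of replicate 2, and C4b and Cst6 stood on the other side there. Igfbp6 was also lower with Igfbp3 in cKit-/DDR2+, at 160.3 against 635 CPM.

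In 4 of 5 libraries Igfbp3 was higher in capillary cells with a UMI of the artery list. The capillary gate held cells with a UMI of Gja5, Hey1, Stmn2 or Fbln5, the genes of this list. These were 507 of 985 cells in cKit-/DDR2+, 117 of 271 in cKit+/DDR2- replicate 2 and 172 of 549 in cKit+/DDR2+/CD45-. In gates of at least 20 cells the list also summed to 211 to 263 CPM in fibroblasts and 301 to 475 CPM in lymphatic cells. Gja5 was at 10.04 CPM or less in the capillary cells with such a UMI. A UMI of the list thus does not show that a cell is arterial. Igfbp3 in the cells with such a UMI was 161 (147 to 176) CPM in cKit-/DDR2+, 69.5 (52.1 to 90.9) in replicate 2 and 81.2 (66.4 to 98.2) in cKit+/DDR2+/CD45-. In the cells without one it was 57.6 (48.3 to 68.1), 29.8 (19.96 to 42.8) and 21.03 (15.9 to 27.3) CPM in the same libraries. The level was thus higher with a UMI of the list in these 3 libraries, and in the 12 such cells of cKit+/DDR2+/CD45+, at 256 (140.1 to 430.0) CPM against 54.2 (29.6 to 90.99) in the other 40. It was not in replicate 1, at 18.1 (4.92 to 46.2) CPM in 29 cells with and 36.8 (23.8 to 54.3) in 97 cells without. The capillary cells of cKit-/DDR2+ had the highest sum of these 4 genes, 474 CPM against 134, 186 and 263 CPM in cKit+/DDR2+/CD45+, cKit+/DDR2+/CD45- and replicate 2 and 95.4 in replicate 1.

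All genes were also ranked in cKit-/DDR2+ by capillary cells with 2 or more Igfbp3 UMIs against those with none. The 6 highest were Igfbp5, Esm1, Stc1, the complement gene C3, Hey1 (a gene of the artery list) and Unc5b. In cKit-/DDR2+ the Notch target Hey1 was at 276 against 104 CPM and the netrin receptor Unc5b at 215 against 84.3. In cKit+/DDR2- replicate 2 they were at 146 against 55.4 and 241 against 51.9, and in cKit+/DDR2+/CD45- at 189 against 28.5 and 158 against 50.1. Stc1, an inhibitor of the IGF binding protein proteases, was higher as well, at 77.7 against 20.5, 43.1 against 27.01 and 45.1 against 6.0 CPM. The sets with Igfbp3 numbered 111, 17 and 28 cells. For the other 3 genes the difference was smaller or opposite there. Igfbp5 was at 27.04 against 39.9 and Esm1 at 40.6 against 30.3 CPM in cKit+/DDR2+/CD45-, Esm1 at 8.62 against 5.54 in replicate 2, and C3 was at 0 in the cells with Igfbp3 in both. In replicate 1, with 6 cells with Igfbp3, Hey1 was at 29.2 against 32.9 CPM. Of all 12 genes ranked, 5 stood on the same side in cKit+/DDR2+/CD45-. Of the 6 lower with Igfbp3, Lyz2 did so, Retnla and Lyz1 were at 0 in both sets there, and Cd74, Pdgfrb and Kcnj8 stood on the other side, Pdgfrb at 63.1 against 10.5 and Kcnj8 at 104 against 13.2 CPM.

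**Figure D2:**
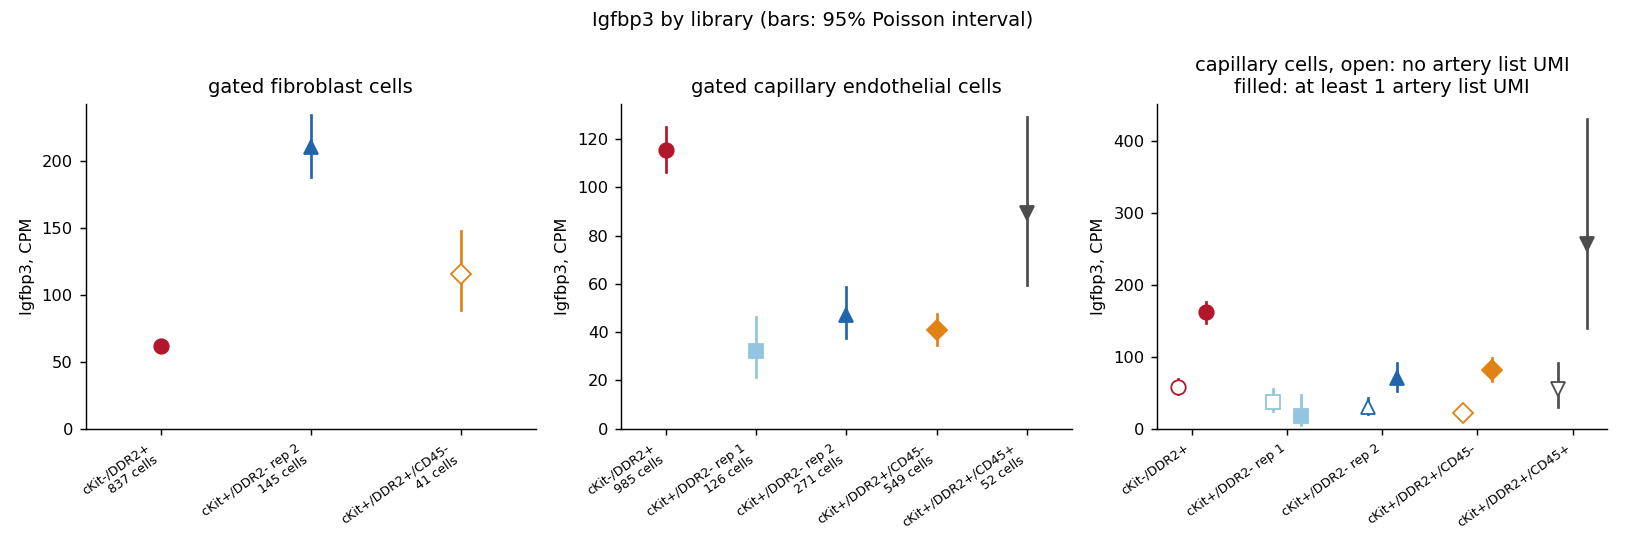
Igfbp3 in CPM (y axis) by library (x axis) in fibroblasts (left), in capillary cells (middle) and in capillary cells with (filled) and without (open) a UMI of the artery genes Gja5, Hey1, Stmn2 or Fbln5 (right), with 95% Poisson intervals as bars. cKit-/DDR2+ is the lowest library in fibroblasts (61.8 CPM) and the highest in capillary cells (115 CPM).

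Igfbp4, a soluble IGF inhibitor cleaved by Pappa, was widespread except in capillary cells. Fibroblasts had 1097 (1079 to 1116) CPM in cKit-/DDR2+, 749 (707 to 793) in cKit+/DDR2- replicate 2 and 571 (509 to 638) in the 41 cells of cKit+/DDR2+/CD45-. Lymphatic cells had 503 to 796 CPM and endocardial cells 501 (38 cells) to 872 CPM (37 cells). These 3 ranges overlapped. Macrophages followed with 199 (187 to 212) CPM in replicate 2 and 286 (281 to 292) in cKit+/DDR2+/CD45+, and capillary cells were lowest at 41.7 to 109.8 CPM. In cKit+/DDR2+/CD45+ the macrophages held 89.1% of the library's Igfbp4 UMIs.

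Igf1 was higher in macrophages with Igfbp4. In cKit+/DDR2+/CD45+ the 2229 macrophages with 2 or more Igfbp4 UMIs had Igf1 at 112 against 35.6 CPM in the 564 without, and in cKit+/DDR2- replicate 2 the values were 91.6 against 27.98 CPM (226 and 157 cells). By both splits the cells with the member had more Folr2, a folate receptor, and F13a1, a transglutaminase, genes known from resident macrophages. Folr2 was at 674 against 214 CPM by the Igf1 split and 500.1 against 127 by the Igfbp4 split in cKit+/DDR2+/CD45+, and at 543 against 169 and 397 against 102 in replicate 2. F13a1 was at 1315 against 436 and 988 against 246, and at 1540.5 against 448 and 1063 against 308. Lyve1, a hyaluronan receptor, was at 241 against 69.2 and 449 against 97.5 CPM by the Igfbp4 split.

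Macrophages without these members had more of other genes. Il1b, an inflammatory cytokine, was at 208 against 702 CPM by the Igf1 split in cKit+/DDR2+/CD45+ and 98.5 against 509.9 in replicate 2. The elastase Mmp12 was at 32.3 against 208 and 6.29 against 124 CPM, and by the Igfbp4 split at 62.6 against 328 and 27.8 against 163. Cd209a, a dendritic cell lectin, was at 23.2 against 194 CPM in cKit+/DDR2+/CD45+ and 1.96 against 8.79 in replicate 2. Of the 12 genes ranked by the Igf1 split, Mmp9 was the one on the other side in replicate 2 (25.2 against 27.3 CPM). Of the 12 by the Igfbp4 split, all stood on the same side in both libraries. The cells with the member were deeper (medians of 12165 against 10888 UMIs for Igf1 in cKit+/DDR2+/CD45+), and the part of depth was not tested.

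Fibroblasts were split by Igf1 in the same way. In cKit-/DDR2+ the 475 cells with 2 or more Igf1 UMIs had Inmt (a methyltransferase) at 98.5 against 14.1 CPM, the chemokine Cxcl14 at 676 against 338 and Penk (proenkephalin) at 256 against 120.5 in the 221 without. In cKit+/DDR2- replicate 2 (42 and 72 cells) these were 76.1 against 0, 289.7 against 163 and 78.2 against 36.8. Igfbp5 was among the genes lower with Igf1 in cKit-/DDR2+ (21.1 against 114 CPM) and was higher with Igf1 in replicate 2 (46.5 against 22.3). Of the 12 genes ranked, 9 stood on the same side in replicate 2, and besides Igfbp5 the complement gene C7 (0 against 3.94 CPM) and Cytl1 (40.2 against 26.3 CPM), the lowest in the ranking, did not.

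Igfbp5, which binds extracellular matrix as well as IGFs, was highest in lymphatic and endocardial cells. Lymphatic cells had 2631 (2429.9 to 2845) CPM in cKit+/DDR2- replicate 1 (35 cells), 2482 (2359.7 to 2609.7) in replicate 2 and 2441 (2299 to 2589) in cKit+/DDR2+/CD45- (42 cells). All 3 intervals overlapped, and without the shared barcodes replicate 1 was at 1804 CPM (28 cells). At 2000 UMIs per cell 54.4% of lymphatic cells in replicate 2 had a UMI, against 0.206% of its macrophages.

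Endocardial Igfbp5 differed from library to library. It was 449.8 (418 to 484) CPM in cKit+/DDR2- replicate 1, 1078 (1059 to 1098) in replicate 2, 1645 (1608 to 1682) in cKit+/DDR2+/CD45-, 872 (729 to 1036) in cKit+/DDR2+/CD45+ (37 cells) and 3183 (3000.0 to 3375) in cKit-/DDR2+ (38 cells). No pair of the first 3 libraries had overlapping intervals. Without the shared barcodes 41 endocardial cells were left in replicate 1, with 776 CPM. In cKit-/DDR2+, 4 of the 38 cells had a UMI of Msln, Upk3b or Krt19, markers of the epicardial surface, against 1 cell in cKit+/DDR2+/CD45- and none in the other 3 libraries. Without those 4 the level was 2976 (2787 to 3173) CPM. The endocardial cells of cKit-/DDR2+ also had the highest sum of the fibroblast list, 5571 CPM against 2423 to 3320 elsewhere, and the part of this in the level was not tested.

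Igfbp5 divided the endocardial cells. In cKit+/DDR2- replicate 2, 492 cells had 2 or more UMIs, 578 had none and 106 had 1, at nearly equal depth (medians of 9456 and 9842 UMIs). Nrg1, the endocardial growth factor neuregulin 1, was lower in the cells with Igfbp5, at 53.7 against 399 CPM. It was lower by the same split in cKit+/DDR2+/CD45- (43.6 against 500.2, 196 and 179 cells) and in replicate 1 (71.02 against 274, 53 and 83 cells). Lyve1 was higher, at 264 against 56.2, 317 against 48.3 and 88.3 against 30.7 CPM in the same order. All 12 genes ranked in replicate 2 stood on the same side in the other 2 libraries. Every split of replicate 1, above and below, includes the shared barcodes and was not repeated without them.

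The remaining genes of that split fall into those higher and those lower with Igfbp5. Higher with it were Mgll (monoacylglycerol lipase, 263 against 59.2 CPM in replicate 2), Nbl1 (a BMP antagonist, 61.8 against 10.3), Slc26a10 and Serpina1b. Lower were Sost (the Wnt inhibitor sclerostin, 12.7 against 68.1), Comp (15.9 against 83.7), Apoc1 (30.8 against 144), Fgl2 and G0s2. Comp and Apoc1 were higher in the cells with Igf2, as given above. Nrg1 belongs to the endocardial marker list and Lyve1 to the lymphatic list. Prox1, which defines the lymphatic type, had no UMI in the endocardial gate of any library, by the way cells were assigned.

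**Figure D3:**
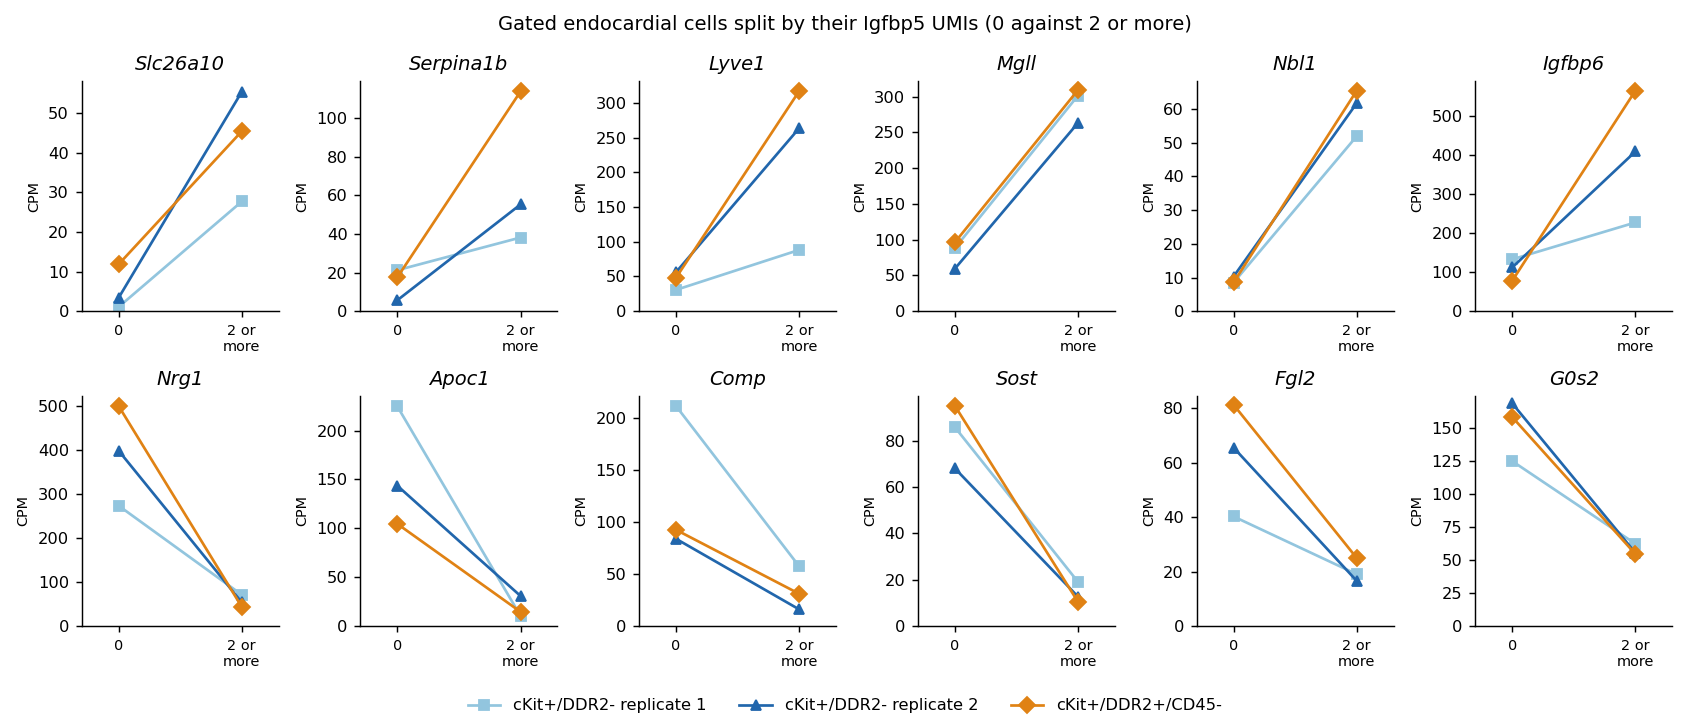
Levels in CPM (y axis) of the 12 genes ranked by endocardial Igfbp5, in endocardial cells with 0 and with 2 or more Igfbp5 UMIs (x axis), with 1 line per library. Nrg1 falls and Lyve1 and Igfbp6 rise from left to right in the cKit+/DDR2- replicates and in cKit+/DDR2+/CD45-.

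In capillary cells Igfbp5 was 65.2 (58.6 to 72.4) CPM in cKit-/DDR2+, 83.2 (65.4 to 104) in cKit+/DDR2- replicate 1, 269 (245 to 295) in replicate 2, 82.1 (73.5 to 91.6) in cKit+/DDR2+/CD45- and 44.8 (24.5 to 75.1) in cKit+/DDR2+/CD45+. Replicate 2 stood above the other 4, and without the shared barcodes replicate 1 had 20.2 and cKit+/DDR2+/CD45+ 19.5 CPM. Capillary cells with 2 or more Igfbp5 UMIs had more of the pericyte genes Kcnj8 and Vtn. The potassium channel Kcnj8 was at 374 against 17.8 CPM in cKit-/DDR2+ (42 and 887 cells), 96.03 against 1.41 in replicate 2 (24 and 229 cells) and 281 against 6.82 in cKit+/DDR2+/CD45- (22 and 500 cells). Vtn (vitronectin) was at 284 against 13.2, 45.2 against 1.41 and 225 against 5.69 CPM. Of the 12 genes ranked by this split, 8 stood on the same side in both other libraries, and 4 genes lower with Igfbp5 (Retnla, Slamf1, Pik3r6 and Lrp5) did not. The 5 pericyte genes summed to 313 (replicate 2) to 1215 CPM (cKit-/DDR2+) over the capillary gates of the 5 libraries. The lymphatic list summed to 1475 and 1559 CPM in the capillary gates of replicates 1 and 2, against 48.8 to 67.1 CPM in the other 3. In replicate 2 the 24 cells with Igfbp5 also had more Igfbp4 (429 against 50.9 CPM) and Igf1 (67.8 against 12.7). They had less Igfbp7 (243 against 1172 CPM). Gated lymphatic cells of replicate 2 had Igfbp4 at 503, Igf1 at 37.2 and Igfbp7 at 183 CPM. The part of pericyte or lymphatic cells in capillary Igfbp4 and Igfbp5 was not tested.

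Fibroblasts had Igfbp5 at 52.2 (48.1 to 56.4), 64.9 (53.00 to 78.7) and 21.97 (11.3 to 38.4) CPM in cKit-/DDR2+, cKit+/DDR2- replicate 2 and cKit+/DDR2+/CD45- (41 cells), and few of them had a UMI (3.61%, 3.50% and 2.50%). Macrophages stayed at or below 8.04 CPM. Cells without any of the 5 markers had 261 (cKit+/DDR2+/CD45+) to 2299.5 CPM (cKit+/DDR2+/CD45-), and in cKit-/DDR2+ they held 25.4% of all Igfbp5 UMIs. Cells with several markers held 4.41% of these UMIs in cKit-/DDR2+ and 41.6% and 27.1% in the cKit+/DDR2- replicates. Their share was 17.4% in cKit+/DDR2+/CD45- and 76.7% in cKit+/DDR2+/CD45+.

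Igfbp6, the binding protein that prefers Igf2, was high in fibroblasts and endocardial cells. Fibroblasts had 608 (594 to 622) CPM in cKit-/DDR2+, 369 (339 to 399.9) in cKit+/DDR2- replicate 2 and 423 (370.1 to 481) in cKit+/DDR2+/CD45- (41 cells). Endocardial cells had 164 (144 to 185) CPM in replicate 1, 235 (226 to 244) in replicate 2, 321 (305 to 338) in cKit+/DDR2+/CD45-, 711 (626 to 804) in the 38 cells of cKit-/DDR2+ and 148 (92.5 to 224) in the 37 of cKit+/DDR2+/CD45+. The 2 types overlapped. Without the shared barcodes replicate 1 had 339 CPM, close to cKit+/DDR2+/CD45-, and without the 4 cells with Msln, Upk3b or Krt19 the value of cKit-/DDR2+ was 569.5 (489 to 659.6) CPM. Lymphatic cells had 72.7 to 117, capillary cells 2.27 to 29.9 and macrophages 0 to 1.44 CPM, each range below the one before. Without the shared barcodes replicate 1 had 177 CPM in lymphatic cells, above the endocardial value of cKit+/DDR2+/CD45+, and 0 in capillary cells.

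Igfbp6 was higher in endocardial cells with Igfbp5, and Igfbp5 in those with Igfbp6. Cells with 2 or more Igfbp5 UMIs had Igfbp6 at 409 against 112 CPM in replicate 2, 564 against 78.1 in cKit+/DDR2+/CD45- and 227 against 133 in replicate 1. Split by Igfbp6 instead, Igfbp5 was at 1959 against 759, 3208 against 905 and 832 against 299 CPM. Cells with Igfbp6 also had more Tgfbi, a matrix protein induced by TGF-beta, at 184 against 47.2 CPM in replicate 2 and 135 against 28.2 in cKit+/DDR2+/CD45-. Cxcl10, which led the ranking in replicate 2, was the 1 of 12 genes on the other side in cKit+/DDR2+/CD45- (0 against 15.7), and it was at 0 in both sets of replicate 1.

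Igfbp7, a vascular matrix protein, was high in fibroblasts and in capillary cells. Fibroblasts had 3440.5 (3407 to 3474) CPM in cKit-/DDR2+, 2979 (2894 to 3065) in cKit+/DDR2- replicate 2 and 3602 (3445 to 3765) in cKit+/DDR2+/CD45- (41 cells). At 2000 UMIs per cell, 98.6% of fibroblasts had a UMI in cKit-/DDR2+. Capillary cells had 1957 (1920.0 to 1995) CPM in cKit-/DDR2+, 2203 (2107 to 2302) and 1074 (1026 to 1124) in the cKit+/DDR2- replicates, 1676 (1636 to 1717) in cKit+/DDR2+/CD45- and 2455 (2285 to 2635) in cKit+/DDR2+/CD45+. Replicate 2 was the lowest of the capillary values, and 72.1% of its capillary cells had a UMI against 93.3% in cKit-/DDR2+. The fibroblast range lay above the capillary range. Endocardial cells had 249 to 403, lymphatic cells 91.7 to 312 and macrophages 4.02 to 6.73 CPM. The lowest lymphatic value, that of replicate 1, was 31.6 CPM without the shared barcodes. In macrophages of cKit+/DDR2+/CD45+, 1.07% of cells had a UMI at this depth, which was taken as the background share.

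**Figure D4:**
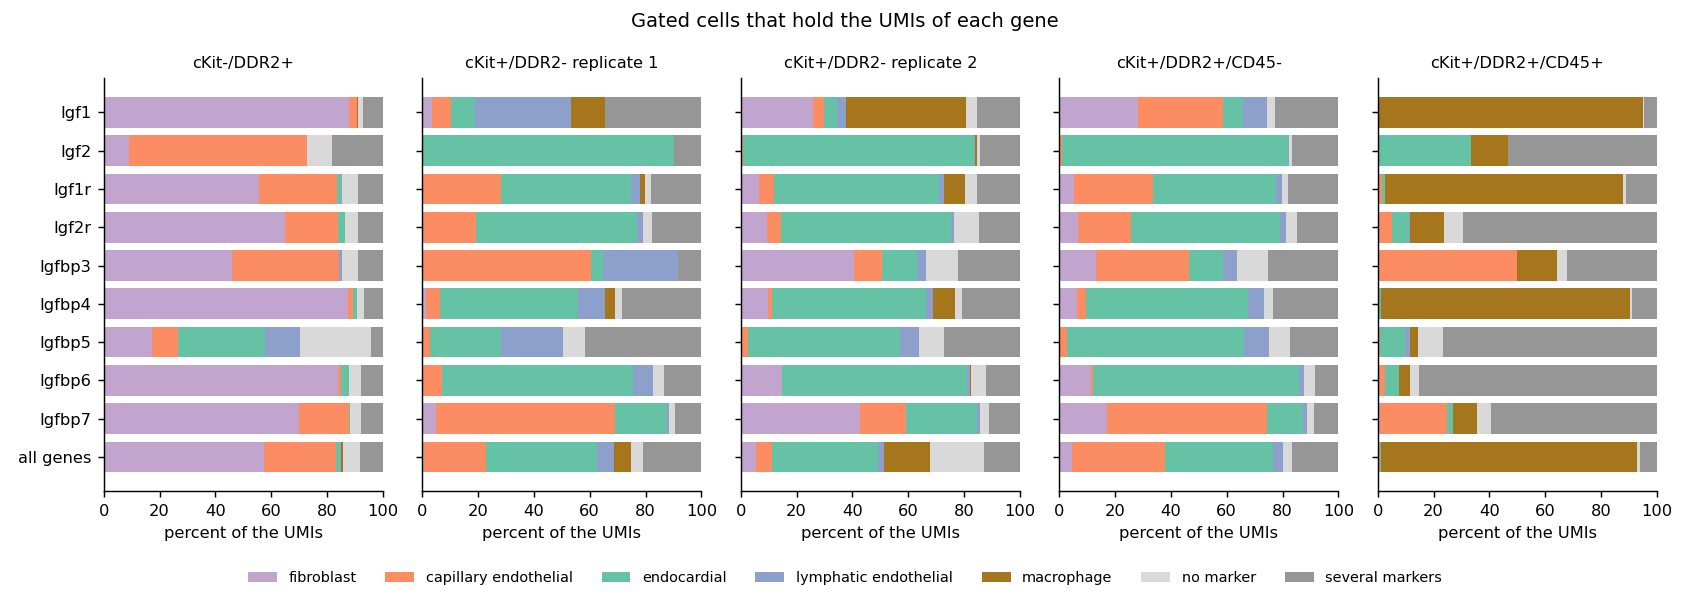
Share of each gene's UMIs in percent (bar length) that fell in each gated cell type, in cells with several markers and in cells with none, per library. Igf1 came from fibroblasts in cKit-/DDR2+ (87.9%) and from macrophages in cKit+/DDR2+/CD45+ (94.9%), and Igf2 from endocardial cells in the cKit+/DDR2- replicates and cKit+/DDR2+/CD45-.

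Between whole libraries the number of members called ran from 0 of 6 to 6 of 7, depending on the pair. A gene was counted where 1 group had at least 50 CPM, and called where the groups were at least 2-fold apart in log2(CPM + 1), for cKit+/DDR2- in both of its libraries in the same direction. Brackets after a log2 difference give its 95% counting interval, or, for cKit+/DDR2- with both libraries, the range over them. Comparisons that share a library are not independent of one another. Between cKit+/DDR2+/CD45- and cKit-/DDR2+, 4 of 8 members were called, against 17.2% of all genes. Igfbp5 was higher (1007 against 175 CPM, log2 difference 2.52 [2.47 to 2.58]). Igf1 (-3.11), Igfbp6 (-1.30) and Igfbp7 (-1.54) were lower. As a mean over cells and with thinned cells Igfbp6 was at -0.93, under 2-fold, and Igfbp3 was called instead, at -1.21 and -1.17. The member median was -0.84 and that of all genes -0.04. The first library held 41 gated fibroblasts and the second 837, which cannot be told apart from the level per cell in these sums.

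Between cKit+/DDR2- and cKit-/DDR2+, 5 of 8 members were called against 14.3% of all genes. Igfbp5 was higher at 2.05 [2.00 to 2.11], and Igf1 (-2.99), Igfbp3 (-1.91), Igfbp6 (-1.84) and Igfbp7 (-2.30) were lower. As a mean over cells (-1.20) and with thinned cells (-1.11) Igfbp6 was no longer called in both libraries, and Igfbp3 did not pass a filter of 100 CPM. The member median was -1.26 (all genes -0.03). Between cKit+/DDR2+/CD45- and cKit+/DDR2-, 0 of 6 members were called against 3.68% of all genes. The largest difference was that of Igfbp7, 0.76 [0.33 to 1.36], and the member median was 0.38 (all genes 0.02). Between cKit+/DDR2+/CD45+ and cKit+/DDR2+/CD45-, 6 of 7 members were called, against 41.3% of all genes. Igf1 was higher (2.28 [2.14 to 2.54]) and Igf1r (-1.07), Igf2r (-4.33), Igfbp5 (-4.88), Igfbp6 (-3.97) and Igfbp7 (-3.74) were lower, with a member median of -3.74 (all genes -0.13). The Igf1r difference was under 2-fold as a mean over cells (-0.89), with thinned cells (-0.99) and with a pseudocount of 10 CPM (-0.95), and Igf1 did not pass a filter of 100 CPM. The first of these libraries was mostly macrophages and the second mostly endothelial.

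Within fibroblasts fewer genes and fewer members were apart. Between cKit+/DDR2- replicate 2 and cKit-/DDR2+, 2 of 8 members were called against 1.84% of all genes. Igfbp3 was higher (1.75 [1.57 to 1.95]) and Igf1 was lower (-1.06 [-1.28 to -0.85]). With Gm42418, Lars2, mitochondrial and ribosomal protein genes left out of the totals, the Igf1 difference was -0.96 and under 2-fold, so Igfbp3 alone was called. Igfbp4 (-0.55), Igfbp6 (-0.72), Igf1r (0.33), Igf2r (0.57) and Igfbp7 (-0.21) were under 2-fold. The member median was 0.05 (all genes -0.05). These fibroblasts came from a library with high Xist and one without, which cannot be told apart from the sort. In the 41 fibroblasts of cKit+/DDR2+/CD45-, 2 of 8 members were called against cKit-/DDR2+ (background 2.45%), Igf1 at -1.16 [-1.56 to -0.80] and Igfbp5 at -1.21 [-2.21 to -0.43]. Igfbp3 was at 0.89 [0.50 to 1.27] there, the same sign as in replicate 2. These calls depended on the setting: Igf1 was at -0.70 with thinned cells, Igfbp5 at -0.38 with cells assigned by marker lists, -0.96 with a pseudocount of 10 CPM and 1.28 when cells with other markers were kept, and Igfbp3 passed 2-fold in 5 of 9 alternatives, at up to 2.01. Against replicate 2, 1 of 8 was called (background 1.52%), Igfbp5 at -1.52 [-2.56 to -0.70], a call lost in 4 of 9 alternatives (-0.30 with other markers kept, -0.31 with marker lists, and under the minimum level with thinned cells and with a filter of 100 CPM).

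Within capillary cells Igfbp3 was called in 3 comparisons. Between cKit+/DDR2+/CD45- and cKit-/DDR2+ it was the 1 of 6 members called, at -1.48 [-1.76 to -1.25]. The background was 2.65%, the member median -0.21 and that of all genes -0.09. Between cKit+/DDR2- and cKit-/DDR2+ it was again the 1 of 6, at -1.52 [-1.81 to -1.27] (background 1.15%, medians 0.09 and -0.06). In capillary cells without an artery gene UMI, an alternative chosen after seeing the data, the first of these was -1.41 and the second -0.77, under 2-fold. As a mean over cells the second was -1.09 and was not called in both libraries. Without the shared barcodes, with replicate 1 at 47.8 CPM, the second kept its call. Between cKit+/DDR2+/CD45+ (52 cells) and cKit+/DDR2+/CD45- Igfbp3 was the 1 of 6 called, at 1.12 [0.50 to 1.72], with a background of 7.84%. This last difference turned to -0.21 when cells with other markers were kept in the gate (104 cells), was 0.36 as a mean over cells, and had a member median of 0.36 (all genes 0.05).

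Igfbp4 was the 1 of 5 members called between cKit+/DDR2+/CD45- and cKit+/DDR2- capillary cells, at -1.32 [-1.38 to -1.27] (background 0.551%, medians -0.24 and -0.04). It was -0.58 with cells assigned by marker lists and -0.52 in cells without an artery gene UMI, both under 2-fold. Without the shared barcodes it was -1.11, with replicate 1 at 80.9 CPM, and was no longer called in both libraries. Igfbp5 was at -1.09 [-1.70 to -0.02] in this comparison, and without replicate 1 it was called as well. Between cKit+/DDR2- and cKit-/DDR2+ capillary cells Igfbp5 was at 1.42 [0.35 to 2.03] and Igfbp4 at 0.85, and without replicate 1 Igfbp5 was called there too.

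**Figure D5:**
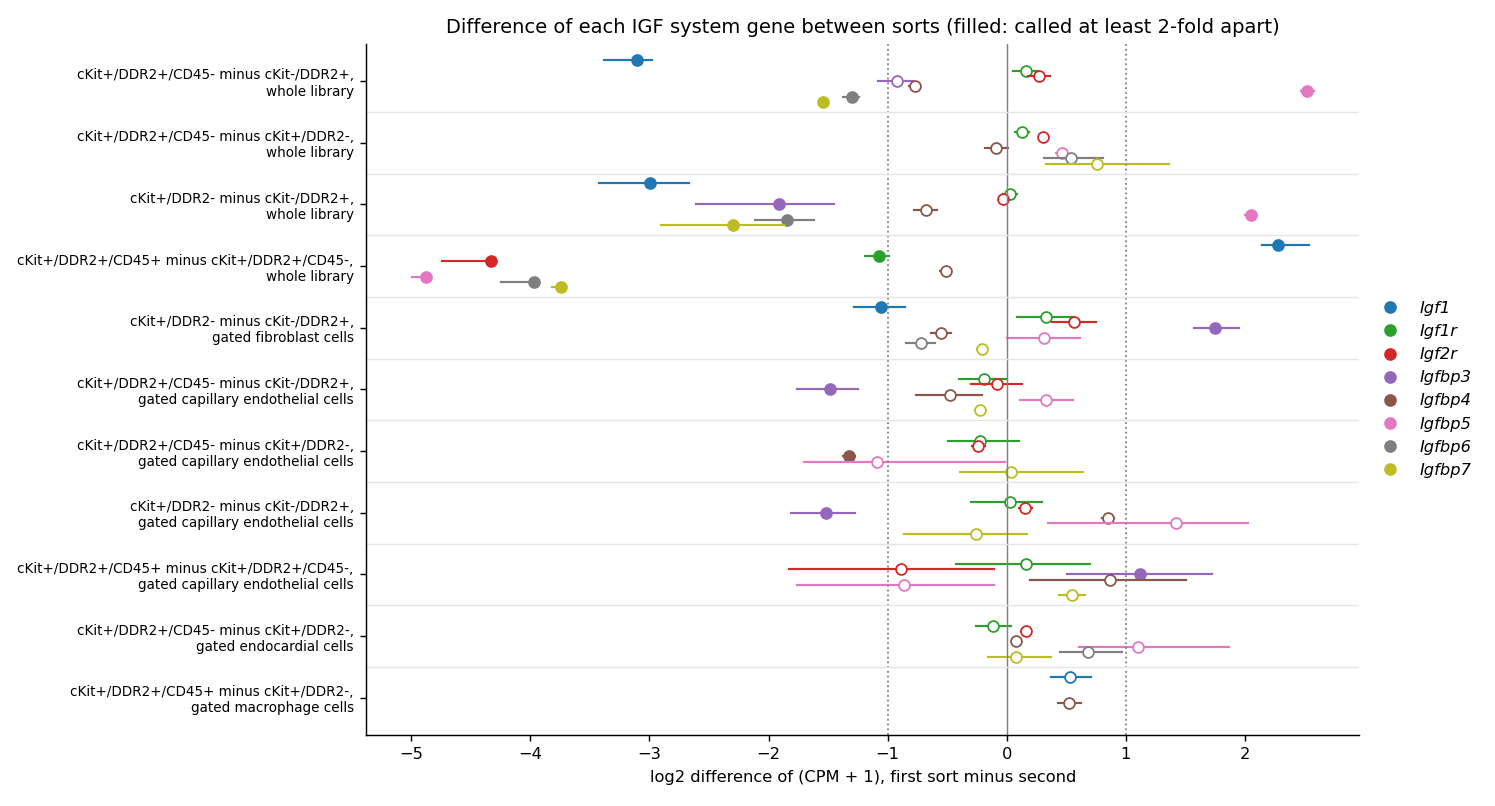
Log2 difference in CPM + 1 (x axis) of each member with at least 50 CPM in 1 group, by comparison (y axis), filled where called at 2-fold. Bars are counting intervals for single libraries and the range over both libraries for cKit+/DDR2-, and Igfbp3 lies at 1.75 in fibroblasts and -1.52 in capillary cells between cKit+/DDR2- and cKit-/DDR2+.

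Within endocardial cells no member was called between cKit+/DDR2+/CD45- and cKit+/DDR2- (0 of 6, background 0.448%, medians 0.12 and -0.04). Igfbp5 was at 1.11 [0.61 to 1.87], over 2-fold against replicate 1 and under it against replicate 2, and Igfbp6 at 0.68 [0.45 to 0.97]. Without the shared barcodes replicate 1 had Igfbp6 at 339 CPM, above the 321 of cKit+/DDR2+/CD45-, and Igfbp5 at 776. Replicate 1 was then under the minimum of 50 cells, so the difference against it was not recomputed. Against the 38 endocardial cells of cKit-/DDR2+, 2 of 6 members were called in cKit+/DDR2- (background 5.03%), Igfbp5 at -2.06 [-2.82 to -1.56] and Igfbp6 at -1.83 [-2.11 to -1.59]. Igfbp5 was at -1.35 when cells with other markers were kept and was then not called in both libraries. In cKit+/DDR2+/CD45- 1 of 6 was called (background 7.34%), Igfbp6 at -1.14 [-1.34 to -0.95]. That call was lost in 5 of 9 alternatives, at -0.83 to -0.98, among them the one without cells with Msln, Upk3b or Krt19 (-0.85). Between cKit+/DDR2+/CD45+ and cKit+/DDR2+/CD45- 1 of 7 was called (background 11.7%), Igfbp6 at -1.12 [-1.80 to -0.52], and it turned to 0.14 when cells with other markers were kept. Without the shared barcodes fewer than 20 endocardial cells of cKit+/DDR2+/CD45+ were left and this comparison gave no value.

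In macrophages neither of the 2 members past the filter was called between cKit+/DDR2+/CD45+ and cKit+/DDR2- replicate 2 (background 1.37%). Igf1 was at 0.53 [0.37 to 0.70] and Igfbp4 at 0.52 [0.43 to 0.62], with a member median of 0.53 (all genes 0.02). With the 23 macrophages of replicate 1 included, 0 of 2 were called (background 0.17%), and Igf1 was at 1.00 [0.53 to 1.71]. In lymphatic cells 0 of 8 members were called between cKit+/DDR2+/CD45- and cKit+/DDR2- (background 2.98%). Igfbp7 was at 1.18 [0.77 to 1.75] and Igfbp5 at -0.07. In these gates the fibroblast list summed to 2258 CPM in cKit+/DDR2+/CD45- (7 of 8 markers, Pdgfra at 0 by the gate) against 58.4 and 1244 in replicates 1 and 2. The endocardial list summed to 2102 against 217 and 1031 CPM, with all 7 markers in each. The part of these UMIs in the lymphatic values was not tested.

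Of 28 other genes of the IGF axis (proteases and their inhibitors, other binding proteins, the insulin receptor with its adaptors, and the Igf2 locus), 23 were listed in at least 1 library. Between cKit+/DDR2+/CD45- and cKit-/DDR2+ whole libraries, 3 of the 12 past the filter were called. H19 was higher (446 against 6.79 CPM, 5.84), and the binding protein protease Htra1 (-1.94) and the endocytic receptor Lrp1 (-3.50) were lower, with a median of 0.01. The same 3 of 12 were called between cKit+/DDR2- and cKit-/DDR2+, at 5.85, -2.23 and -3.46 (median -0.11), and none of 9 between cKit+/DDR2+/CD45- and cKit+/DDR2- (median near 0). Between cKit+/DDR2+/CD45+ and cKit+/DDR2+/CD45-, 6 of 10 were called, Lrp1 (2.45) and the adaptor Grb2 (1.49) higher and the protease Adamts1 (-3.83), the adaptor Grb10 (-3.92), the transcription factor Foxo1 (-1.90) and H19 (-4.54) lower.

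Within gated types of at least 50 cells, the one call among these genes was in fibroblasts. Stc2, a stanniocalcin that blocks Pappa, was lower in cKit+/DDR2- replicate 2 than in cKit-/DDR2+ (19.5 against 63.8 CPM, -1.66 [-2.28 to -1.19]), 1 of 14 genes past the filter. It was lower in the 41 fibroblasts of cKit+/DDR2+/CD45- as well (10.98 CPM, -2.44). None of 7, 7, 7 and 8 genes were called in the capillary comparisons, none of 10 in endocardial cells and none of 6 in macrophages. Against the 38 endocardial cells of cKit-/DDR2+, H19 was higher and Stc1 lower in both other sorts compared (2.51 and -2.65 in cKit+/DDR2+/CD45-, 2.59 and -3.44 in cKit+/DDR2-).

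Across the 13 library-by-type profiles of at least 50 cells, the genes most like each member in log2(CPM + 1) were read as a description, since the profiles share libraries. Igfbp7 was most like Cd34 (Pearson r = 0.996) and Sparc (0.988), and Igfbp5 like Nr2f2 (0.980), Ece1 (0.9751) and Ptpn14 (0.974). Igf2r was most like Csf1 (0.9899) and Plod2 (0.989), and Igf1r like Sf3b2 (0.947) and Plod2 (0.938). Igfbp6 was most like Serpine2 (0.972), Igf1 like Colec12 (0.966), Igfbp4 like Cpq (0.960) and Igfbp3, with the lowest maximum, like Enpp3 (0.927). Igf2 was under 50 CPM in all 13 profiles and was not compared.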

How the data were processed

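Single-cell libraries were made from polyadenylated RNA with the Chromium Single Cell 3' v3.1 kit, per the labels. Cell Ranger, Seurat 4.0.4 and mm10 are named in the submitters' processing notes, and the version of Cell Ranger and the filters on cells are not given in the sources used here. The deposited values are the natural log of 1 plus UMIs per 10000 of a cell's total, as the values show, and whole UMIs were recovered from all of them within 0.01. A gene that a table does not list was taken as 0.

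Cells were gated at 2 or more UMIs of Gpihbp1 or Npr3, 3 of C1qa, and 1 of Pdgfra or Prox1, and had to be positive for exactly 1 of these. UMIs were summed over cells and divided by the sum of all genes. Poisson and Clopper-Pearson intervals (95%) cover counting error only. The cKit+/DDR2- value is the mean of its 2 libraries, or replicate 2 alone where replicate 1 had under 50 gated cells. Intervals of log2 differences are without the pseudocount of 1 CPM. Levels were compared between cells and libraries for each gene, and levels of different genes were set side by side without a test. The replicate numbers follow the order of deposit and pair nothing.

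The members, gene lists and gates were chosen with earlier results of these data known. Named genes are the members, listed IGF axis genes called beside a member, the 3 genes most like each member in expression (mitochondrial, ribosomal protein, Xist, Y-linked and predicted genes left out), and, by a rule added after the levels were seen, the 6 highest and 6 lowest genes of each split. Alternatives changed the gate, scaling, thinning, pseudocount, filter, cell minimum and the libraries and cells used. Python 3.11.15, numpy 2.4.6, scipy 1.17.1, pandas 2.3.3 and matplotlib 3.10.9 were used, and the counting of calls was tested on simulated data.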

Additional observations from a re-analysis of the deposited data

Results flagged for a closer look

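Igfbp3 differed in opposite directions between cKit+/DDR2- and cKit-/DDR2+ in 2 cell types. The log2 difference was 1.75 in fibroblasts, where cKit+/DDR2- replicate 2 was the library of that sort with at least 50 cells, and -1.52 in capillary cells, where both cKit+/DDR2- libraries were lower than cKit-/DDR2+. The difference between these effects was not tested, and the genes were named with this contrast in view.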

How the results depend on the processing

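Of 115 counts of called members recomputed under an alternative, 93 stayed within 1.5 times the reported count and 22 did not. Of 686 log2 differences of single members in whole libraries or types of at least 50 cells, 650 kept their status as called or not called. Another 18 lost their call, 17 gained one and 1 called difference reversed. A call can be lost through the filter or through 1 of the 2 cKit+/DDR2- libraries while the difference stays over 2-fold. Direction was followed for called differences only, so uncalled ones that changed sign are not among the reversed. With groups of 20 to 49 cells, 38 of 60 counts stayed within 1.5 times and 22 did not. Of their 429 differences 390 kept their status, 14 lost the call, 23 gained one and 2 called ones reversed. The cause of these changes was not tested. In capillary cells, cKit+/DDR2+/CD45- minus cKit-/DDR2+ gave 1 call as reported and 3 when cells with other markers were kept. It gave 2 each with thinned cells, with a filter of 10 CPM, and without artery gene UMIs. Igfbp5, uncalled at 0.33 in the main setting, was called there in opposite directions. It was at 2.23 with other markers kept and 1.22 with thinned cells, but at -1.28 without artery gene UMIs. For cKit+/DDR2+/CD45- minus cKit+/DDR2- the capillary count was 1, against 2 with other markers kept and with the 10 CPM filter, 0 with marker lists, 0 without shared barcodes, and 1 to 2 when a replicate was left out (2 without replicate 1). For cKit+/DDR2- minus cKit-/DDR2+ it was 1, against 4 with other markers kept, 0 as a mean over cells, 2 with thinned cells, 0 without artery gene UMIs, and 1 to 2 when a replicate was left out (2 without replicate 1). For cKit+/DDR2+/CD45+ minus cKit+/DDR2+/CD45- it was 1, against 2 as a mean over cells and with the 10 CPM filter. It was 0 with a pseudocount of 10 CPM and with a filter of 100 CPM. The calls as a mean over cells were Igf2r (-1.54) and Igfbp5 (1.46, from -0.86 in the main setting), and Igfbp3 was not called. Elsewhere, fibroblast cKit+/DDR2- minus cKit-/DDR2+ gave 2 calls and 1 with ribosomal, mitochondrial, Gm42418 and Lars2 UMIs left out. The endocardial and whole-library counts of cKit+/DDR2+/CD45- minus cKit+/DDR2- were 0, and 0 to 1 when a replicate was left out (endocardial Igfbp5 without replicate 2, whole-library Igfbp7 without replicate 1). The macrophage count was 0, and 1 (Igfbp5) when any UMI of the marker sufficed. When cells with other markers were kept, 3 called values reversed. They were capillary Igfbp3 of cKit+/DDR2+/CD45+ minus cKit+/DDR2+/CD45- (to -0.21), fibroblast Igfbp5 of cKit+/DDR2+/CD45- minus cKit-/DDR2+ (to 1.28) and endocardial Igfbp6 of cKit+/DDR2+/CD45+ minus cKit+/DDR2+/CD45- (to 0.14). The alternatives on shared barcodes, artery genes and epicardial markers were chosen after seeing the data. No paired analysis was possible because the sorts share no replicate number that the labels give. Depth limits genes near 3 UMIs per gate, such as Igf2 outside endocardial cells.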
